A study of Homo sapiens with 5 samples.

Results

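Narrow stretches of acetylated chromatin that sat wholly within a broader stretch of H3K4me1 were described in VCaP, a human cell line established from prostate cancer. The groups were 2 libraries of H3K27ac (acetylation of histone H3 at lysine 27), 2 libraries of H3K4me1 (monomethylation of histone H3 at lysine 4) and 1 input control, chromatin that passed through no antibody step, which was not analysed here as a sample. All came from VCaP cells grown in serum-containing medium, and the labels name no treatment, genotype change or donor. No label says whether a mark's replicates came from different cultures, and their spread may therefore be technical. One line in one condition limits the description to that line.

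For each mark, overlapping peaks of its 2 deposited lists were merged, and a merged region was kept where it held a peak of each list. The members are kept H3K27ac regions under 1000 bp wide that lay wholly inside 1 kept H3K4me1 region, called its host, on chromosomes 1 to 22 and X. There were 8231 members among 47128 kept H3K27ac regions, or 17.5%, and they lay in 7492 hosts. The members were chosen by the peak positions and widths in all 4 lists, so their widths, overlap with H3K4me1 and host extents are given as descriptions, with no test. All positions are in build hg19 (GRCh37) and counted from 1. The gene tables at hand are of build GRCh38, so no gene was assigned to a region, and no sequence is shown because no genome of the lists' build was used.

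H3K4me1 is placed at enhancers by the methyltransferases KMT2C and KMT2D, often before an enhancer becomes active. H3K27ac is placed by the acetyltransferases EP300 and CREBBP and is found at active enhancers and active promoters. An active enhancer is typically a short nucleosome-depleted core bound by transcription factors, with modified nucleosomes on both sides. Active promoters carry H3K27ac too, but near the start site H3K4me1 usually gives way to H3K4me3, so H3K4me1 is found on their flanks. In prostate cancer cells the androgen receptor, FOXA1 and, in VCaP, the ERG fusion product bind many such enhancers.

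With both H3K4me1 libraries in use, being wholly inside H3K4me1 was the commonest state of narrow H3K27ac regions and the least common one of wide regions. Of 19988 narrow H3K27ac regions, the members made up 41.2% (95% interval 40.5 to 41.9%). With 1 library left out at a time the share was 17.9% without H3K4me1 replicate 2, where the rule gave 3577 members and wholly inside was no longer the commonest state, and 38.5 to 49.8% without any other library. Without H3K27ac replicate 1 the rule gave 20962 members, and without H3K27ac replicate 2 it gave 13589; in both cases neither merging nor a second peak was asked for. Another 5461 narrow regions (27.3%) overlapped a kept H3K4me1 region but reached past it or bridged several, and 6296 (31.5%) met none. Of 27140 H3K27ac regions of 1000 bp or more, 4630 (17.1%) were wholly inside. A wide region has fewer regions it can fit into, so this order follows in part from width alone. Intervals on shares are exact (Clopper-Pearson) binomial and cover counting error over regions only.

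The share inside H3K4me1 declined gradually from 300 bp up and had no step at 1000 bp. It was 49.8% of the 964 regions of 200 to 299 bp, 50.9% at 300 to 399 bp, 47.9% at 400 to 499 bp and 42.1% at 500 to 599 bp. It was 31.1% at 800 to 899 bp, 29.8% at 900 to 999 bp and 30.7% at 1000 to 1099 bp. The share that met no H3K4me1 stayed between 29.2 and 34.2% over the classes from 300 to 999 bp. Over those classes the members thus gave way to regions partly on H3K4me1, whose share was 14.9% at 300 to 399 bp and 39.4% at 900 to 999 bp.

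**Figure D1:**
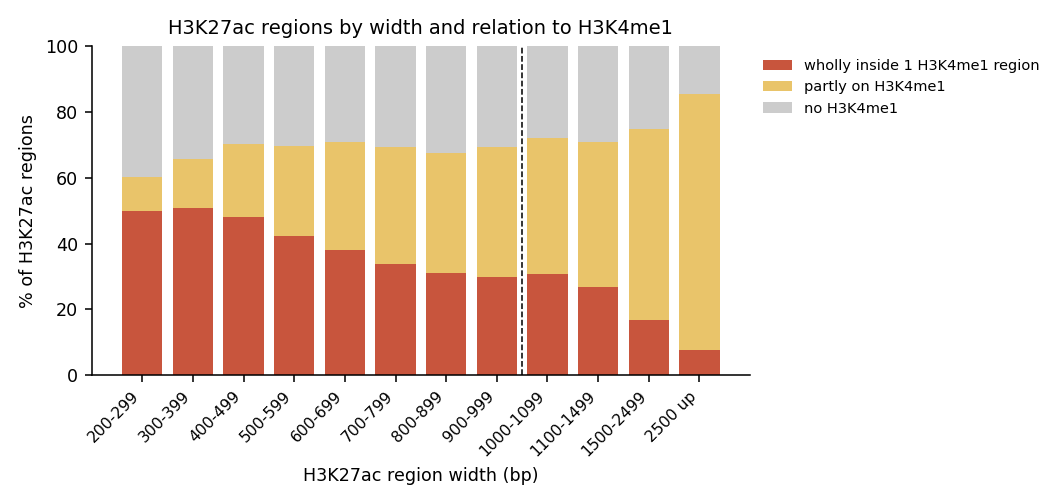
Percentage of kept H3K27ac regions (vertical axis) by region width in bp (horizontal axis), split into regions wholly inside 1 H3K4me1 region, partly on H3K4me1 and without it; the dashed line marks the 1000 bp limit. The share wholly inside is 50.9% at 300 to 399 bp and 7.66% from 2500 bp up, with no break at the limit.

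The 3 regions nearest the limit on each side lay in hosts of varied width. The 3 members just under it were each 999 bp wide. On chromosome 7 (115956954 to 115957952) the H3K27ac peaks of replicates 1 and 2 covered 732 and 400 bp in a host of 2197 bp. On chromosome 11 (72124850 to 72125848) they covered 802 and 999 bp in a host of 1727 bp. On chromosome 12 (66270458 to 66271456) they covered 859 and 966 bp in a host of 2649 bp, where the member began 37 bp from the host's left end. The 3 regions just outside were each 1000 bp wide. They lay on chromosome 2 (20418506 to 20419505, host of 5280 bp) and on chromosome 5 (34447268 to 34448267, host of 1083 bp, and 69429722 to 69430721, host of 1225 bp). In that order H3K27ac replicates 1 and 2 covered 1000 and 727 bp, 956 and 877 bp, and 940 and 340 bp of them.

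Members were compact and mostly a single peak in each H3K27ac library. Their median width was 518 bp, with quartiles of 396 and 692 bp and a range of 223 to 999 bp. Exactly 1 peak per library made up 7999 members (97.2%), while 22 held 2 peaks of replicate 1 and 210 held 2 peaks of replicate 2. Among the 7999, the median peak was 434 bp wide in replicate 1 and 375 bp in replicate 2, and replicate 1 had the wider peak in 63.9%. The 2 peaks of a member were centred a median of 58 bp apart, and 90% of members had centres within 181.5 bp. Widths in the 2 libraries had a Spearman's rho of 0.482 across these members, which share libraries and peak caller and are not independent. Few peaks sat at the floor of the lists: 201 (2.51%) in replicate 1 and 209 (2.61%) in replicate 2 were within 10 bp of the smallest width of their list, 221 and 172 bp.

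The H3K27ac libraries overlapped somewhat less within members than within other narrow regions. Bases covered in both libraries made up a median of 67.5% of those covered in either for members. For narrow regions partly on H3K4me1 the value was 71.4%, and for narrow regions without H3K4me1 75.6%. Median widths were 518 bp for members, 653 bp for those partly on H3K4me1 and 557 bp for those without it, and the part of width in the overlap was not tested.

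The H3K4me1 libraries contributed unequally to the hosts. A single peak of each H3K4me1 library held the whole member in 3140 cases (38.1%). In 4354 cases (52.9%) 1 peak of replicate 2 alone did so, in 430 (5.22%) 1 peak of replicate 1 alone, and in 307 (3.73%) the member was held only by the merged region. In all, 91.0% of members lay inside 1 peak of replicate 2 and 43.4% inside 1 peak of replicate 1. Replicate 2 thus set the extent of H3K4me1 around most members.

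Every host holds a peak of each H3K4me1 library by the rule, and few members lay in a stretch that 1 library left bare. Only 176 members (2.14%) had no base in a replicate 1 peak and only 5 (0.0607%) none in replicate 2. The middle base of the member was in a peak of replicate 1 in 89.2% and of replicate 2 in 99.5%. In replicate 1 the middle and both end bases were covered in 3640 members (44.2%), and the middle with 1 end in 3060 (37.2%). A replicate 1 peak covered both ends but not the middle in 206 members (2.50%), and the middle but neither end in 638 (7.75%). In replicate 2 these patterns were rare, with 10 members (0.121%) covered at both ends but not the middle and 16 (0.194%) at the middle but neither end. H3K4me1 replicate 1 was thus split by the members less often than it was confined to their middle, and replicate 2 mostly ran across them. A member lies wholly inside the merged peaks, so replicate 2 had to cover any base that replicate 1 left bare. The rule therefore fixes part of the high cover by replicate 2. At the centre of the 4630 wide H3K27ac regions inside H3K4me1, replicate 1 covered 72.2% and replicate 2 98.8%, and at 500 bp to either side they covered 85.9 and 99.1%. A dip at the centre of wide regions was therefore plain in replicate 1 and under 1 percentage point in replicate 2. These regions too lie wholly inside merged peaks, so the small dip in replicate 2 is also fixed in part by the rule.

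Around the members H3K4me1 declined slowly and H3K27ac quickly. At 500 bp from the member's centre, averaged over both sides, 42.2% of positions were in an H3K4me1 peak of replicate 1 and 66.8% in one of replicate 2. H3K27ac peaks of replicates 1 and 2 covered 5.69 and 6.34% there, a low value that the width limit itself brings about. Further out H3K27ac returned, with 18.7 and 17.4% of positions covered at 800 bp in replicates 1 and 2, before it declined to 7.79 and 6.94% at 3000 bp. H3K4me1 replicate 1 held a shoulder, with 40.6% at 600 bp and 37.4% at 800 bp. The rise of H3K27ac near 800 bp was not particular to the members, since narrow regions without H3K4me1 had 17.5 and 16.7% at 800 bp and 5.69 and 5.15% at 3000 bp. The smallest gaps that the H3K27ac lists allow between peaks were 222 and 173 bp, and their part in this spacing was not tested.

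**Figure D2:**
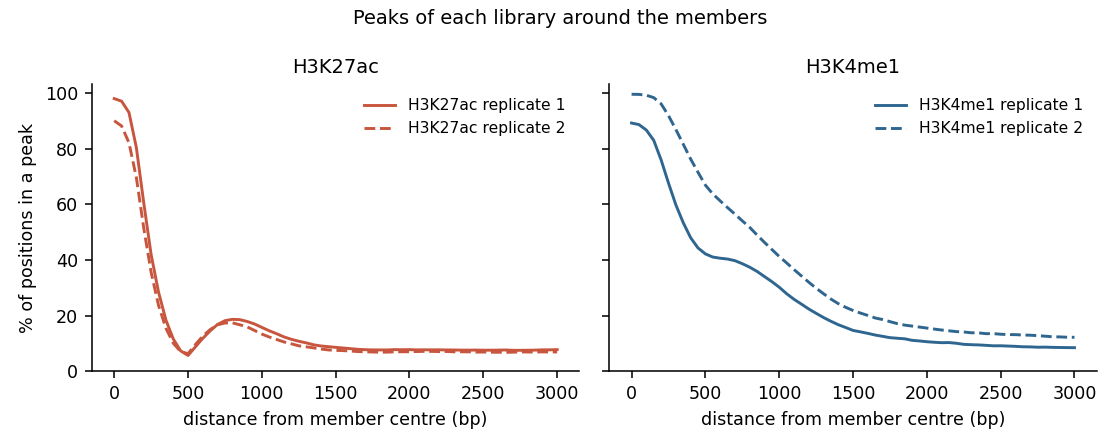
Percentage of positions that lie in a peak (vertical axis) by distance from the centre of the 8231 members in bp, averaged over both sides (horizontal axis), for each H3K27ac library (left) and each H3K4me1 library (right). H3K27ac is near 6% at 500 bp and between 17.4 and 18.7% at 800 bp, while H3K4me1 declines over more than 1000 bp in both libraries.

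Hosts were wide H3K4me1 regions of which about 45% was acetylated. The 7492 hosts made up 8.83% of H3K4me1 regions and had a median width of 1547 bp (quartiles 1113 and 2108 bp), against 789 bp (537 and 1160 bp) for the 44911 H3K4me1 regions without H3K27ac. In the single libraries the hosts' H3K4me1 peaks covered medians of 1052 and 1487.5 bp in replicates 1 and 2, against 460 and 723 bp for H3K4me1 regions without H3K27ac. A host must be at least as wide as its member, so part of this difference is fixed by the rule. H3K27ac covered a median of 44.8% of a host (quartiles 29.6 and 61.9%). Bases in both H3K4me1 libraries made up a median of 67.6% of those in either for hosts and 57.6% for H3K4me1 regions without H3K27ac. For the 32435 H3K4me1 regions that met H3K27ac but held no member it was 68.6%, so this overlap was not particular to hosts. Those regions had a median width of 1101 bp, of which H3K27ac covered a median of 78.3%. H3K4me1 replicate 1 broke into several peaks in 40.5% of hosts and replicate 2 in 3.003%.

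The share of H3K4me1 regions that were hosts levelled off with width. Hosts were 3.11% of the 45364 H3K4me1 regions under 1000 bp, 11.2% of those from 1000 to under 1500 bp and 17.9% of those from 1500 to under 2000 bp. They were 20.6% from 2000 to under 3000 bp, 20.8% from 3000 to under 5000 bp and 22.2% from 5000 bp up. Over the same 6 classes the share of H3K4me1 regions with any H3K27ac went on to climb, at 35.0, 48.3, 62.3, 79.3, 90.2 and 98.1%. Very wide H3K4me1 regions thus more often held H3K27ac that was itself wide or crossed an end than a member.

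Most hosts held their member as the only H3K27ac region. Of 7492 hosts, 5874 (78.4%) held 1 H3K27ac region, 1469 (19.6%) held 2, 135 (1.80%) held 3, 12 held 4 and 2 held 5, counting every kept H3K27ac region that touched the host. By members alone, 6779 hosts (90.5%) held 1, 689 (9.20%) held 2, 22 held 3 and 2 held 4. Host width grew with the number of H3K27ac regions, with medians of 1386, 2265, 4141, 6798.5 and 12944 bp for 1 to 5 of them. A host has to reach across the gaps between the regions counted in it, so part of this growth is fixed by the count. Density did not grow in step: from 1 to 5 regions a host held 0.669, 0.798, 0.666, 0.496 and 0.386 H3K27ac regions per kb, the last 2 values resting on 12 and 2 hosts. The acetylated share of the host had medians of 39.8% with 1 region, 58.2% with 2 and 62.9% with 3. Hosts with 2 or more H3K27ac regions were 21.6% in all, 13.4% without H3K4me1 replicate 2 and 35.9% without H3K27ac replicate 1.

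**Figure D3:**
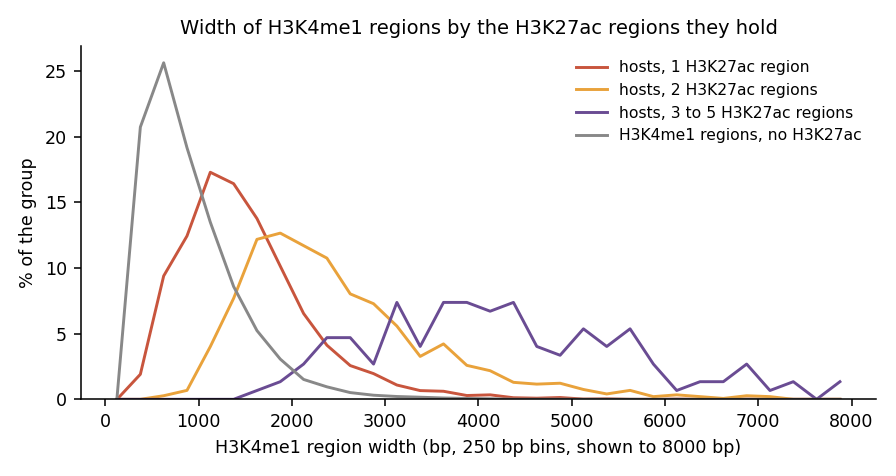
Percentage of each group (vertical axis) by H3K4me1 region width in 250 bp bins (horizontal axis), for hosts with 1, 2 and 3 to 5 H3K27ac regions and for H3K4me1 regions without H3K27ac. The medians are 1386 bp for hosts with 1 region, 2265 bp with 2 and 789 bp for H3K4me1 regions without H3K27ac.

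Taken over all hosts, lone members were spread almost evenly over H3K4me1. Position was measured as the share of the room in the host, its width less that of the member, that lay to the left of the member. Evenly spread positions would put 50% of members in the middle 50% of that room and 10% in each of 10 equal bins. Of the 5874 members alone in their host, 48.8% (47.5 to 50.1%) lay in the middle 50%, and the 10 bins held between 9.52 and 11.05% each. The shorter arm of H3K4me1 beside a lone member had a median of 153.5 bp and the longer one 606 bp, so the typical lone member lay off centre. Of these members 39.1% were within 100 bp of a host end.

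The even spread was the sum of opposite patterns in wide and narrow hosts. In hosts of 1500 bp or more, 59.5% (57.5 to 61.4%) of 2498 lone members lay in the middle 50%, against 40.8% (39.2 to 42.5%) of 3376 in narrower hosts, a difference of 18.6 percentage points. By host width the share was 41.4% under 1000 bp, 40.4% from 1000 to under 1500 bp, 56.7% from 1500 to under 2000 bp, 64.3% from 2000 to under 3000 bp and 57.7% from 3000 to under 5000 bp. The outermost 2 of the 10 bins held 15.1% of lone members in hosts of 1500 bp or more and 26.5% in narrower hosts, where an even spread gives 20%. Lone members thus lay more often beside an end in narrow hosts and more often inside in wide ones. The contrast covers only hosts with 1 H3K27ac region. Members with 1 other H3K27ac region, whose hosts were a median of 2200 bp wide, lay in the middle 50% in 35.3%. The part that choosing lone members has in the contrast was not tested. A place away from the ends was not particular to members. Of 3813 H3K27ac regions of 1000 bp or more that lay alone in their H3K4me1 region, 54.9% (53.3 to 56.5%) were in the middle 50%. The H3K4me1 regions around them had a median width of 2344 bp and were not split by width.

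The contrast between wide and narrow hosts of lone members was present in each of the 4 pairs of single libraries. For lone narrow H3K27ac peaks inside single H3K4me1 peaks, the middle share in H3K4me1 peaks of 1500 bp or more was 53.2 and 61.9% for H3K27ac replicate 1 in H3K4me1 replicates 1 and 2. For H3K27ac replicate 2 it was 55.1 and 59.8%. In narrower H3K4me1 peaks the 4 values were 43.8, 44.5, 42.5 and 43.5% in the same order. The lowest value in wide peaks exceeded the highest in narrow ones. The contrast was present in each class of member width but was smallest in the widest. In hosts of 1500 bp or more the middle share was 62.8 and 58.3% for lone members of 200 to 399 and 400 to 599 bp. It was 60.3 and 57.2% there for 600 to 799 and 800 to 999 bp. In narrower hosts the 4 values were 40.6, 40.1, 39.7 and 46.2% in the same order. The interval of the last (41.1 to 51.2%) reached an even spread.

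Position in a narrow host was known only roughly. In the 4344 hosts with 1 H3K4me1 peak in each library, the libraries placed a host end a median of 121 bp apart, and replicate 2 had the wider peak in 83.0%. The shorter arm of lone members had a median of 388 bp in hosts of 1500 bp or more, which exceeds that distance, and 77 bp in narrower hosts, which does not.

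**Figure D4:**
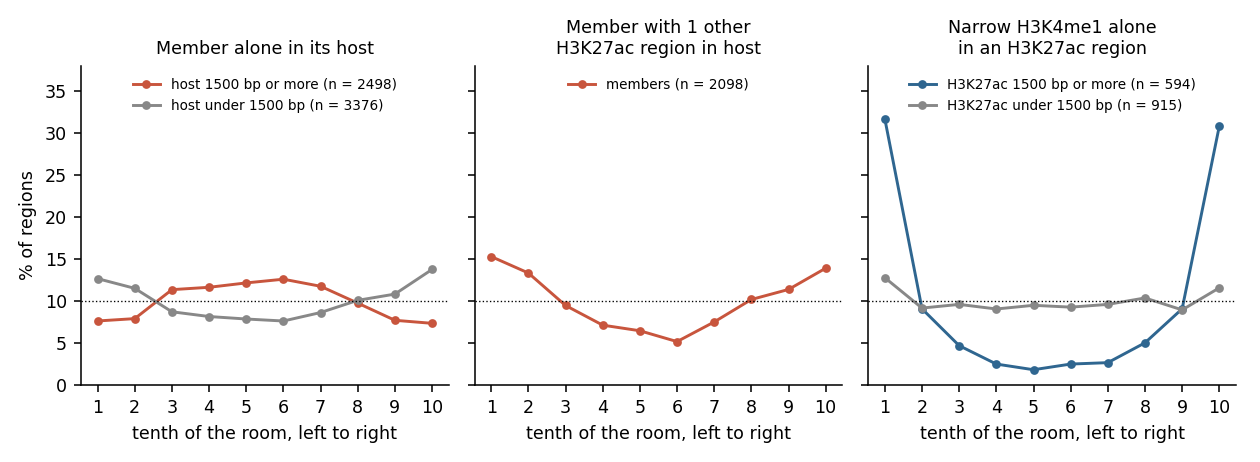
Percentage of regions (vertical axis) in each of 10 equal bins of the room that the surrounding region leaves, left to right (horizontal axis), for members alone in their host, for members with 1 other H3K27ac region in the host, and for narrow H3K4me1 regions alone in an H3K27ac region; the dotted line is an even spread of 10%. Lone members are most frequent in the middle of hosts of 1500 bp or more and at the ends of narrower ones, and narrow H3K4me1 regions gather in the outermost bins of wide H3K27ac regions.

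The reverse nesting had another shape. While 41.2% of narrow H3K27ac regions lay inside H3K4me1, 4042 of 45364 H3K4me1 regions under 1000 bp (8.91%) lay wholly inside 1 H3K27ac region. The marks differ in the number and width of their regions, and the part of this in the 2 shares was not tested. In surrounding regions of 1500 bp or more, 59.5% of lone members lay in the middle 50%, against 13.6% (10.98 to 16.7%) of 594 lone narrow H3K4me1 regions inside H3K27ac. In the 4 library pairs the share for narrow H3K4me1 was 13.4 to 15.9%, below every value for narrow H3K27ac. The outermost 2 bins of wide H3K27ac regions held 62.5% of the narrow H3K4me1 regions. In surrounding regions under 1500 bp the values were nearer each other, at 40.8% for members and 47.7% for narrow H3K4me1. Only 1509 of the 4042 narrow H3K4me1 regions inside H3K27ac were alone there. Over all nested regions, lone or not, the middle share was 45.3% for members and 26.1% for narrow H3K4me1, a smaller difference.

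Members with 1 other H3K27ac region in their host lay in its middle less often than an even spread gives. Geometry fixes this in part, because the other H3K27ac region takes up some of the room. Among 2098 members that shared a host with 1 other H3K27ac region, 35.3% (33.3 to 37.4%) lay in the middle 50%, and the 2 central bins held 6.48 and 5.20%. In the 4 library pairs the middle share was 32.9 to 41.6%. Of the 259 members with 2 or more others in their host, 48.6% (42.4 to 54.9%) lay in the middle 50%, near an even spread. Of the 1469 hosts with 2 H3K27ac regions, 629 (42.8%) held 2 members, 247 (16.8%) a member and a wide region wholly inside, 380 (25.9%) a member and a wide region that crossed a host end, and 213 (14.5%) a member and a narrow region that crossed one.

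Hosts with exactly 2 members as their only H3K27ac mostly had a short gap between them. Their median width was 2112 bp, with a median H3K4me1 arm of 298 bp outside the members. The members' centres were a median of 807 bp apart, and the gap between them had a median of 266 bp with quartiles of 227 and 335 bp. In 90.6% of these hosts the gap was 500 bp or less, and in 19 it was over 1000 bp. Measured within H3K27ac replicates 1 and 2 alone, the gap had medians of 313 and 335 bp. The lists hold no gaps under 222 and 173 bp, while gaps between the merged members went down to 15 bp. The part of peak calling in the size of the gap was not tested. The midpoint of the gap fell in the middle 50% of the host in 96.0%, as a gap flanked by 2 members lies away from the ends. A short gap was not particular to paired members. Between a member and a narrow region that crossed a host end the median gap was 273 bp. With a wide region it was 308.5 bp where that region crossed an end and 273 bp where it lay inside.

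H3K4me1 replicate 1 was also often interrupted between paired members. In the 629 hosts with 2 members, a single replicate 1 peak covered the gap in 214 (34.0%), and in 144 it had no base there. The same library held 45.5% of the 1258 members of these hosts inside 1 peak, although members (median 510 bp) were wider than gaps. Replicate 2 covered the gap with 1 peak in 612 hosts (97.3%) and held 94.3% of the members. The libraries thus differed in how often 1 peak ran through the space between paired members. In the other kinds of hosts with 2 H3K27ac regions, 1 replicate 1 peak covered the gap in 30.0 to 43.7%. Such breaks were thus not particular to paired members. Both members lie in 1 host, so replicate 2 had to cover any base of the gap that replicate 1 left bare. The rule therefore fixes part of the high cover by replicate 2.

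Breaks of H3K4me1 replicate 1 also touched lone members, and in a minority of these hosts the midpoint of the break fell on the member. In 1634 hosts of a lone member (27.8%) replicate 1 formed exactly 2 peaks, a median of 302 bp apart. The break touched the member in 1058 (64.7%), and its midpoint fell on the member in 441 (26.99%), while these members took up a mean of 33.6% of their host. A break between 2 peaks cannot lie at a host end, so 33.6% is not the share that even placement would give. How often the 2 would meet by placement was not tested.

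The hosts with the most members were more varied. On chromosome 2 a host from 162881162 to 162887413 (6252 bp) held 4 members and 1 further H3K27ac region. Its H3K4me1 covered 4492 bp in replicate 1 and 5981 bp in replicate 2. The members were 624, 655, 633 and 583 bp wide, with 394, 492 and 302 bp between them. Their H3K27ac peaks were 624, 634, 580 and 376 bp in replicate 1 and 354, 524, 432 and 560 bp in replicate 2, so neither library had the wider peak at all 4. Another host on chromosome 2, from 15903288 to 15907598 (4311 bp), held 4 members of 436, 554, 493 and 462 bp as its only H3K27ac regions. All 4 lay inside H3K4me1 of both libraries over 100% of their length, and the first began 1267 bp from the host's left end, so that the array lay towards the right of the host.

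Another 22 hosts held 3 members each, of which those with the most H3K27ac regions, and then the widest, are given. On chromosome 8 (134273117 to 134292752, 19636 bp) the members of 802, 772 and 844 bp stood beside 2 further H3K27ac regions, and 82.3% of the host was acetylated. The first of these members ended 7063 bp before the next, and the last 2 were 317 bp apart. On chromosome 19 (52522744 to 52529585, 6842 bp) members of 529, 530 and 431 bp lay in the left part of the host, 237 and 726 bp apart. On chromosome 5 (35194028 to 35199655, 5628 bp) members of 606, 422 and 936 bp were the only H3K27ac regions, 1756 and 226 bp apart, and 34.9% of the host was acetylated.

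The widest hosts with a single member as their only H3K27ac were largely unacetylated H3K4me1. On chromosome 5 a host from 137901047 to 137907980 (6934 bp) held a member at 137902135 to 137903071, with H3K27ac peaks of 572 and 602 bp in replicates 1 and 2 and 13.5% of the host acetylated. On chromosome 8 (101952962 to 101958967, 6006 bp) the member had peaks of 716 and 572 bp and 3837 bp of H3K4me1 to its left. On chromosome 12 (77735402 to 77740877, 5476 bp) the arms were 2560 and 2324 bp, and on chromosome 15 (39876086 to 39881503, 5418 bp) they were 2334 and 2435 bp, so both of these members lay near the centre. On chromosome 1 (143727036 to 143732277, 5242 bp) the member covered 7.99% of the host.

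The widest hosts with a member under 300 bp were mixed. On chromosome 21 (42855573 to 42864358, 8786 bp) a member of 277 bp lay 437 bp from the right end beside 3 further H3K27ac regions. On chromosome 17 (34031834 to 34037897, 6064 bp) members of 280 and 811 bp were the only H3K27ac regions. On chromosome 8 (95448424 to 95454078, 5655 bp) a member of 295 bp had no H3K4me1 of replicate 1 on it and was covered by replicate 2 over 100% of its length.

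The members' share of narrow H3K27ac regions varied several-fold between chromosomes. It was lowest on chromosome X, with 64 of 581 or 11.02% (8.59 to 13.8%), followed by chromosome 16 with 21.2% (18.0 to 24.7%) and chromosome 19 with 22.5% (19.4 to 25.7%). It was highest on chromosome 21, with 194 of 297 or 65.3% (59.6 to 70.7%), followed by chromosome 20 with 55.0% (50.8 to 59.1%) and chromosome 8 with 49.7% (46.5 to 53.0%). The median of 23 chromosomes was 42.3%. With H3K4me1 replicates 1 and 2 alone, the share was 3.10 and 10.3% on chromosome X, 6.01 and 17.5% on chromosome 16, 25.7 and 50.6% on chromosome 20 and 37.4 and 63.3% on chromosome 21. Chromosomes X, 16 and 19 were the lowest 3 and chromosomes 20 and 21 the highest 2 with either library, while the interval of chromosome 8 overlapped those of several others. On chromosomes X, 16 and 19 the narrow regions that were not members mostly met no H3K4me1 at all, at 63.3, 52.8 and 52.8% of narrow regions.

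**Figure D5:**
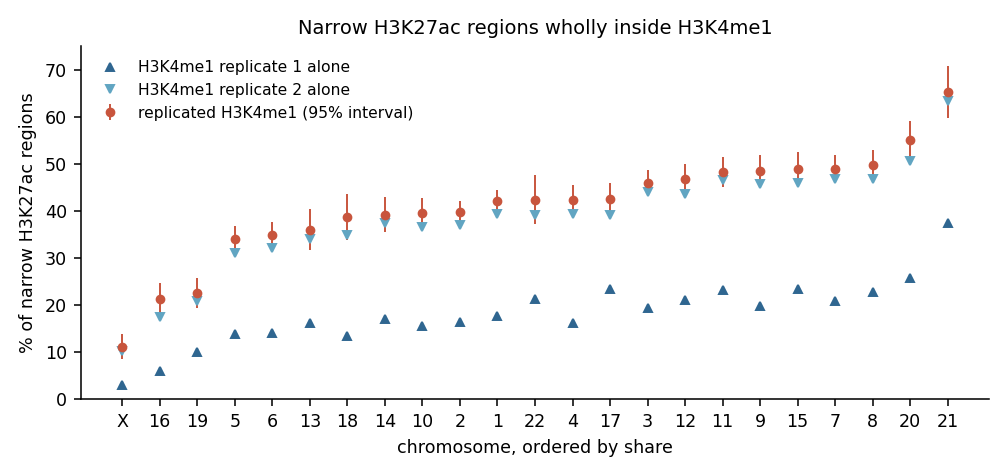
Percentage of narrow H3K27ac regions wholly inside H3K4me1 (vertical axis) for each of 23 chromosomes ordered by that share (horizontal axis), with exact 95% intervals, and the same share with each H3K4me1 library alone. Chromosome X is at 11.02% and chromosome 21 at 65.3%, and H3K4me1 replicate 1 alone lies below replicate 2 alone on every chromosome.

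Hosts differed less between chromosomes than the members' share did. Their median width was between 1081 bp (chromosome X) and 1720 bp (chromosome 21), and the part of them with 2 or more H3K27ac regions between 8.06% (chromosome X) and 26.4% (chromosome 19). The 3 windows of 5 Mb with the most members were chromosome 17 from 75000001 to 80000000 with 49 of 85 narrow regions, chromosome 20 from 45000001 to 50000000 with 46 of 70, and chromosome 11 from 60000001 to 65000000 with 44 of 72. The median over 593 windows with a narrow region was 13 members, and 27 windows held none.

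Members usually had other H3K27ac nearby. The nearest H3K27ac region was a median of 3555 bp away, against 5787.5 bp for narrow regions without H3K4me1 and 1193 bp for those partly on H3K4me1. A neighbour lay within 12.5 kb for 69.5% of members, 72.3% of narrow regions partly on H3K4me1 and 62.4% of those without it. When regions within that distance were joined into domains, 2511 members (30.5%) stood alone in theirs, and 147 (1.79%) lay in a domain with at least 20 kb of H3K27ac. Over the other groups of narrow and wide H3K27ac regions these shares were 27.7 to 51.1% and 0.644 to 3.67%. Neither share was thus particular to the members. Members held 6.09% of the length of all kept H3K27ac regions.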

How the data were processed

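Each ChIP library has 1 peak list deposited by the authors, with 54763 and 64845 peaks for H3K27ac replicates 1 and 2 and 118231 and 125320 for H3K4me1 on the 23 chromosomes used. Each list has 4 columns (chromosome, start, end and name), so peak heights and read depth are unknown here. Build hg19 (GRCh37) and the tools MACS2 2.1.0, Bowtie 1.1.2, Trimmomatic 0.33 and bcl2fastq 2.17 are listed, without roles, per the submitters' processing notes. For peak threshold and control, nothing is given in the sources used here. The smallest gaps within the lists were 222, 173, 192 and 233 bp, in the order above.

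Peaks sharing at least 1 bp were merged within a mark with Python 3.11.15, numpy 2.4.6 and pandas 2.3.3, and exact binomial intervals came from scipy 1.17.1. The code was tested on simulated lists and recovered the planted classes. No significance test was made. With 2 libraries a mark an exact permutation test cannot give p below 0.333. Members, groups, the 1500 bp limit on hosts and the named regions rest on choices made with earlier results of these data known. Named are the 5 hosts with the most members (ties by more H3K27ac regions, then by width), the 5 widest with 1 member as only H3K27ac, the 3 widest with a member under 300 bp, the 3 regions on each side of the limit, the 3 extreme chromosomes at each end and the 3 fullest windows. Alternatives changed 1 choice at a time, except that a common minimum width came with a common joining distance, and leaving out a library also ended merging and the demand for a second peak in its mark.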

Additional observations from a re-analysis of the deposited data

Results flagged for a closer look

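The comparisons leave out chromosome Y. The same rule found 10 members there, among 101 narrow H3K27ac regions, a smaller share than the 41.2% over the chromosomes used.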

How the results depend on the processing

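A value counted as kept when it moved by no more than the SD over the 4 pairs of single libraries, or, for the number of members, stayed within 1.5 times. Of 110 values (10 results under 11 alternatives), 74 were kept, among them every value with 1 minimum width and 1 joining distance (232 bp) for all lists. The SD was 12.3 points for the members' share of narrow regions and 0.862 points for the middle share of lone members in narrow hosts. Kept thus means unlike things for different results, and the SD is not an error of the merged values. The results on hosts split at 1500 bp, on the gap and on narrow H3K4me1 were added after seeing the data. The cause of the changes was not tested. Leaving out 1 library gave 3577 members (without H3K4me1 replicate 2) to 20962 (without H3K27ac replicate 1), with 13589 without H3K27ac replicate 2. The members' share of narrow regions was then 17.9 to 49.8%, the median host 1085 to 1511 bp wide, the share of hosts with 2 or more H3K27ac regions 13.4 to 35.9% (21.6% in the report's setting), the acetylated part of a host 39.5 to 54.6% and the middle share of all members 41.2 to 47.3% (45.3%). The lower end of the shares of narrow regions and hosts, and the 1085 bp, came without H3K4me1 replicate 2. For lone members the middle share was 51.9 to 61.8% in hosts of 1500 bp or more and 40.3 to 44.6% in narrower ones, for narrow H3K4me1 13.3 to 16.6%, and the gap 249 to 322 bp. Over all alternatives and library pairs the share in wide hosts exceeded that in narrow ones by 9.36 to 25.8 points.

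Width limits of 500 and 1500 bp gave 3858 members (500 bp only; 1500 bp kept the count), acetylated parts of 36.0 and 50.2%, and for 1500 bp middle shares of 41.7% in narrow hosts and 18.7% for narrow H3K4me1. Asking for 90% of the region inside let members cross host ends and gave middle shares of 37.8% (all), 55.4% (wide hosts), 29.6% (narrow hosts) and 9.61% (narrow H3K4me1). All merged regions gave 17638 members, 30.5% of hosts with 2 or more, and middle shares of 44.4% (narrow hosts) and 11.6% (narrow H3K4me1). An overlap of 50% gave 14.97% for narrow H3K4me1. The replicate block, which pairs same-numbered libraries without merging, gave a mean of 13578 members, a 1194.5 bp host, a 295.5 bp gap and middle shares of 43.6% (narrow hosts) and 15.1% (narrow H3K4me1). The numbers are not shown to pair the libraries (r = -0.0891 between marks over 2537 windows of 1 Mb). No significance test was made with or without the block. Depth is unknown, so peaks missed for want of reads cannot be told apart from absent marks.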
